A study of Mus musculus with 6 samples.

Results

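Actin is the most abundant cytoskeletal protein of macrophages, and 37 genes of actin and its partners are described here, of 21959 genes in the deposited table. They are the rows of that table whose name is on a list of actin genes, nucleators, monomer-binding proteins, capping and severing proteins, crosslinkers and membrane linkers, and all 37 were found and were abundant enough to be tested. The cells were primary bone marrow-derived macrophages of wild-type (WT) mice. One group, N1 to N3, received for 24 h a medium conditioned by HTR2C-negative alveolar macrophages and diluted 1:1 with fresh complete medium. The other, P1 to P3, received medium from HTR2C-positive alveolar macrophages in the same way. HTR2C is the serotonin receptor 2C, and the donors of the alveolar macrophages were 8 to 12 weeks old, with 48 h of conditioning. There were 3 libraries per group. The labels number the samples without saying whether they are separate cultures, mice or batches of medium, so the p-values cover only how these samples vary, and that variation may be technical. Each difference is between the 2 media, as macrophages in plain medium are not analysed here.

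Globular actin monomers assemble into filaments that push the membrane forward, hold phagocytic cups open and anchor adhesion sites. The Arp2/3 complex starts branched filaments when a factor of the WASP or WAVE family activates it, while formins such as the one encoded by Diaph1 extend unbranched ones. Profilin and thymosin beta 4 hold monomers, cofilin and gelsolin sever filaments, capping proteins stop their growth, and talin, vinculin and the ezrin, radixin and moesin proteins tie them to integrins and the membrane. Macrophages use this machinery to crawl, to spread and to take up particles.

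Libraries held 12843971 to 16031723 counts. The 7 macrophage markers, among them Adgre1, Csf1r and Itgam, were detected in every library, at a summed 19325 to 22591 CPM (counts scaled to a library size corrected with TMM factors). Csf1r alone of these 7 had an unadjusted p under 0.05 and was higher across P1 to P3 (log2 fold change 0.63, SE 0.19). Markers of other cells were at lower levels as sums, and Lyz2 alone held 16029 to 18630 CPM of the macrophage sum. Singly, the neutrophil marker S100a8 (581 to 925 CPM) and the platelet marker Pf4 (440 to 617 CPM) were above Csf1r, Itgam and Mertk in each library. Both were below Lyz2, Adgre1 and Cd68. The 10 neutrophil markers summed to 812 to 1017 CPM with HTR2C-negative and 983 to 1229 CPM with HTR2C-positive medium. Ly6g and Cxcr2 were at 0 counts in all libraries, and 2 of the 7 tested markers were higher at an unadjusted p under 0.05. Of all tested genes 7.90% were higher at that p. The 10 fibroblast or smooth muscle markers summed to 89.1 to 109 and 103 to 111 CPM, with 1 of the 7 tested higher. The 6 dendritic cell markers summed to 3.62 to 8.52 and 6.58 to 9.75 CPM. The 5 megakaryocyte or platelet markers summed to 451 to 485 and 460.0 to 627 CPM, with 1 of the 3 tested higher. For the 7 lymphocyte markers the sums were 1.01 to 1.41 and 1.39 to 2.395 CPM. The 8 epithelial markers reached at most 0.618 CPM in any library, with Krt8, Krt18, Sftpc and Sftpa1 at 0 counts. The part of these cells in the actin values was not tested, and in bulk RNA fewer cells of a type and less RNA per cell cannot be told apart. Library P1 resembled N2 (r = 0.980 over log2 CPM of all tested genes) more than any library of its own group (0.964 and 0.970).

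Between the media no actin gene passed the edgeR correction over all genes. The groups did not overlap in several, which was also so among all tested genes (10.9% higher and 11.5% lower). With edgeR's quasi-likelihood test and Benjamini-Hochberg adjustment, 0 of 37 members had an adjusted p under 0.05, as did 0 of all 10177 tested genes (0%). At an unadjusted p under 0.05, 10 members (27.0%) were higher with HTR2C-positive medium, against 7.90% of all tested genes, and 5 (13.5%) were lower, against 8.71%. The higher ones were Actg1, Wasf2, Diaph1, Coro1a, Gsn, Fscn1, Flna, Vasp, Tln1 and Marcksl1, and the lower ones Arpc5, Cyfip1, Capza1, Capza2 and Marcks. With libraries scaled to total counts alone the split was 14 higher and 2 lower (11.3% and 3.85% of all tested genes), and the median log2 fold change of all tested genes moved from 0.02 to 0.16. The groups did not overlap in 7 members that were higher (18.9%, against 10.9% of all tested genes) and 6 that were lower (16.2%, against 11.5%). DESeq2 called 5 members higher (Coro1a, Flna, Vasp, Tln1 and Marcksl1), against 1.31% of all tested genes, and 1 lower (Capza2), against 2.56%, at its own adjusted p under 0.05. The median log2 fold change of the members was 0.15, from -0.69 to 1.27, and that of all tested genes 0.02. A positive log2 fold change means a higher level with HTR2C-positive medium, and SE is its standard error in the fit. Leaving out 1 library brought members past the edgeR adjusted threshold in 2 cases, with 3 (Capza2, Coro1a and Tln1) without N2 and 5 (Actg1, Capza2, Flna, Marcksl1 and Diaph1) without P1. Of all tested genes, 1.97% passed without N2 and 1.80% without P1. N2 and P1 are the libraries most alike across the groups (r = 0.980), so leaving out either is no independent check.

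**Figure D1:**
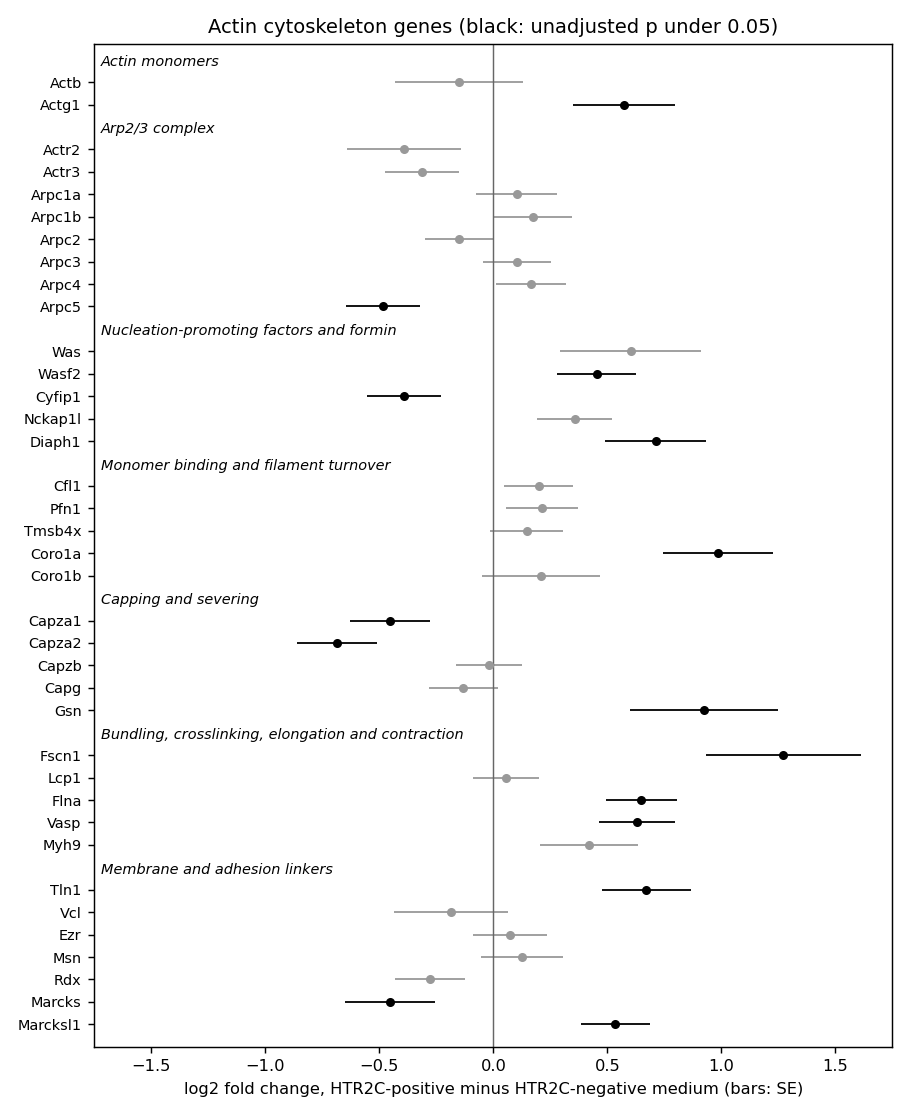
Log2 fold change of each of the 37 actin cytoskeleton genes (x axis, positive where higher with HTR2C-positive medium, bars are the SE of the edgeR fit), grouped by role, with 3 libraries per group. The 15 genes in black had an unadjusted p under 0.05, 10 to the right of 0 and 5 to the left, and 0 of 37 had an adjusted p under 0.05.

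The fold changes ran with the GC content of the transcripts. Across the 37 members Pearson's r between log2 fold change and the GC content of the longest transcript was 0.813 (Spearman's correlation 0.82), and across 10162 tested genes with a GC value 0.519 (0.551). These are correlations across genes, which share the same 6 libraries and are not replicates. Tested genes were split by GC content into 3 classes of like size. In the class with the lowest GC content (up to 45.8%) all 6 members had negative fold changes, as did 75.6% of all tested genes in that class, and 3 (50%) were lower at an unadjusted p under 0.05, against 19.9%. In the class with the highest (over 52%) 16 of 17 members (94.1%) had positive fold changes, as did 80.1% of all tested genes in that class, and 9 (52.9%) were higher, against 18.7%. Relative to the mean of the 6 libraries, member levels correlated with GC content at -0.801 in N1, -0.288 in N2 and -0.672 in N3, and at 0.519, 0.518 and 0.589 across P1 to P3. The sign thus separated the groups, so GC content and the medium cannot be told apart in these 6 libraries. After removal of the trend that each library showed with GC content and transcript length, the median of the members was 0.04, and 4 members were higher (Diaph1, Coro1a, Fscn1 and Flna) and 2 lower (Capza2 and Capg) at an unadjusted p under 0.05. Of all tested genes 4.34% were higher and 5.46% lower in that fit, so the share of members that were lower (5.41%) was at the background. Of the 15 members under that p before, all 15 kept their sign and 5 stayed under it. Values with the trend removed are given below for these 15 genes and for some others.

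**Figure D2:**
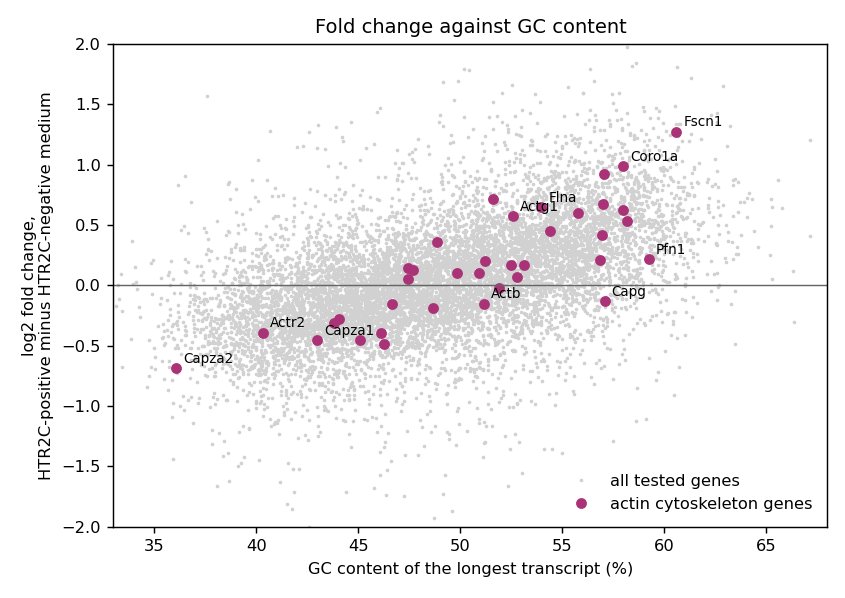
Log2 fold change (y axis, HTR2C-positive minus HTR2C-negative medium) against the GC content of the longest transcript in percent (x axis), for all tested genes (grey) and the 37 actin cytoskeleton genes (purple), with 22 grey points outside the axes. Members under 45.8% GC, such as Capza2 and Actr2, lie below 0, and those with high GC, such as Fscn1 and Coro1a, mostly above.

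Actb, the gene of cytoplasmic beta-actin (ENSMUSG00000029580, GRCm39 chromosome 5, 142888870 to 142892509), held more counts than any other gene in each of the 6 libraries. Its share of the library's counts was 11.5%, 8.14% and 11.6% across N1 to N3, and 7.03%, 13.5% and 10.3% across P1 to P3. The 95% Wilson interval of each share was within 0.0174 percentage points of it, which covers counting error alone. Both the lowest share (P1) and the highest (P2) were in libraries with HTR2C-positive medium, and those with HTR2C-negative medium lay between. The means were 10.4% ± 1.98 and 10.3% ± 3.24 (SD, n = 3), a difference of -0.145 percentage points (exact two-sided permutation test, p = 1, smallest possible 0.1). The difference turned to 1.48 percentage points without P1 and to -1.76 without P2. On the TMM-scaled level Actb had a log2 fold change of -0.15 (SE 0.28), or 0.11 without P1. N2 and P1, the pair of libraries most alike across the groups, were also the pair with the least Actb.

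The other 36 members together took a much narrower range of shares. They held 2.68%, 2.55% and 2.69% of counts across N1 to N3 and 2.46%, 2.52% and 2.59% across P1 to P3. Their means were 2.642% ± 0.0760 and 2.525% ± 0.0662 (SD, n = 3), with overlapping groups (exact two-sided permutation test, p = 0.2). As a share of the counts that are not Actb they were at 3.025%, 2.781%, 3.048%, 2.649%, 2.911% and 2.893% in the same order (exact p = 0.3). With Actb included all 37 genes held 9.49% (P1) to 16.02% (P2) of a library. Scaling to total counts without the Actb counts gave 15 members higher and 2 lower, while 12.6% of all tested genes were higher and 4.21% lower.

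**Figure D3:**
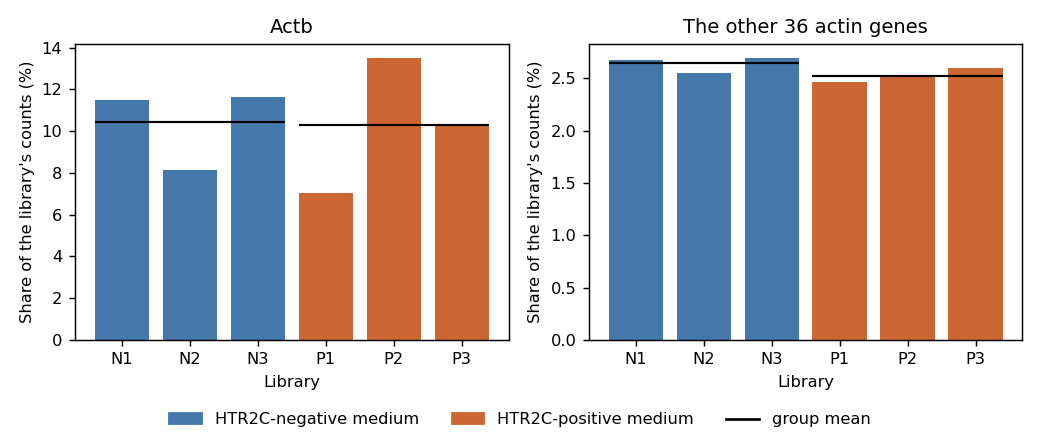
Share of each library's counts, in percent, taken by Actb (left) and by the other 36 actin cytoskeleton genes together (right), as 1 bar per library with a line at each group's mean. Actb ranged from 7.03% in P1 to 13.5% in P2, while the other genes stayed between 2.46% and 2.69%.

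Per length, Actb stood far above its partners. In FPKM, which divides counts by gene length and library total, Actb had a mean of 38649 over the 6 libraries and a range of 26229 to 50402. The next genes were Tmsb4x with 1673 FPKM (1479 to 1931) and Actr2 with 1561 (975 to 1858), whose ranges overlap, then Capg (800.0), Arpc5 (741) and Arpc2 (504). Pfn1, Capza2, Marcks, Cfl1, Actr3, Actg1, Marcksl1, Arpc1b and Lcp1 had means between 119.9 and 383 FPKM. The lowest were Fscn1 (1.28), Myh9 (1.28) and Vcl (0.92). Actin genes have many processed copies in the genome, and so do those of cofilin, profilin and thymosin beta 4, so these levels depend on how reads that map to several places were counted, which is not given in the sources used here. Gapdh, another gene with many such copies and a common reference beside Actb, was at 3.53 to 15.6 CPM.

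Actg1 encodes gamma-actin (ENSMUSG00000062825, chromosome 11, 120236516 to 120239368), the other cytoplasmic actin, nearly identical to beta-actin. It was at 338, 328 and 409 CPM across N1 to N3 and at 331, 649 and 616 CPM across P1 to P3. P2 and P3 lay above all libraries with HTR2C-negative medium, while P1 lay among them, so the groups overlapped. The log2 fold change was 0.57 (SE 0.22, unadjusted p = 0.0241, edgeR adjusted p = 0.230), 0.84 without P1 and 0.47 (unadjusted p = 0.0823) with the GC and length trend removed. Within a library the ratio of Actb to Actg1, in FPKM, needs no scaling between libraries. The ratio does depend on how reads that map to several places were counted, which is not given in the sources used here. It was 383, 233 and 304 across N1 to N3 and 187, 215 and 156 across P1 to P3. Every library with HTR2C-positive medium lay below every one with HTR2C-negative medium, a log2 difference of -0.71 (exact two-sided permutation test, p = 0.1, the smallest possible, and 0.267 adjusted over 8 ratios).

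Many actin genes are known targets of serum response factor, whose binding site is the CArG box, so the promoters were searched for it. The box is 10 bases long and reads the same pattern on both strands. RefSeq promoters (build GRCm38.p6, 250 bases before to 50 after a start site) were found for 31 of the 37 members. Members not named next, Actb among them, either had no promoter in the table or no box in it, which is not told apart here. The box was in 3 of those 31 genes (9.68%), Actg1, Arpc4 and Vcl. Of all 27025 genes with a promoter in the table it was in 1.81%. A match is a description of these letters and not a measured site. The 250 bases before the start site of each are shown so that the position of the box, in capitals, can be compared: it begins 90 bases before the start in Actg1, 250 in Arpc4 and 227 in Vcl. They lie at chr11:120348496-120348745 (minus strand), chr6:113377863-113378112 (plus strand) and chr14:20929148-20929397 (plus strand) and are written 5′ to 3′.
Actg1: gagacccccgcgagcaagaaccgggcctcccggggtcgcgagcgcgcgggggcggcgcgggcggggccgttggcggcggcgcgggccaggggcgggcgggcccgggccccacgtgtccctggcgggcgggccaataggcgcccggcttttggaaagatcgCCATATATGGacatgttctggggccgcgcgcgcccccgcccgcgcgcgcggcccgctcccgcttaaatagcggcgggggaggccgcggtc
Arpc4: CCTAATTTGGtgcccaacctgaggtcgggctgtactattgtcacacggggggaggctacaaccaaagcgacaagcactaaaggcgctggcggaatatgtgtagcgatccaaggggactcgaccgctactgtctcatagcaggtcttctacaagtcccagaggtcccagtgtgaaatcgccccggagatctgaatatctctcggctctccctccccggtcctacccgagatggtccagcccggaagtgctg
Vcl: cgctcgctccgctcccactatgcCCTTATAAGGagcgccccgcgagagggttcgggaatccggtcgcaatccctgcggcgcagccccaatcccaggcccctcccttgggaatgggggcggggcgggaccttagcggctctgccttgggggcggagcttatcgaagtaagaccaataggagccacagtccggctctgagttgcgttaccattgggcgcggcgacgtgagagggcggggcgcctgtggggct

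Of the 3 genes only Actg1 had an unadjusted p under 0.05 between the media. Arpc4 had a log2 fold change of 0.17 (SE 0.15) and Vcl, which encodes the adhesion protein vinculin, one of -0.19 (SE 0.25). The genes of the factor and its coactivators were at low to moderate levels. Srf had means of 3.12 and 4.28 CPM with HTR2C-negative and HTR2C-positive medium, Mrtfa 3.89 and 4.95 CPM and Mrtfb 74.7 and 55.1 CPM, with overlapping groups in each. Of 14 tested genes on a list of these and of immediate-early and muscle-type targets, 4 (28.6%) were higher and 0 lower (unadjusted p under 0.05). Of all tested genes 7.90% were higher and 8.71% lower. The median log2 fold change of the list was 0.28, with 10 positive and 4 negative values. The negative ones were Mrtfb (-0.44), Fos (-0.46), Tpm1 (-0.21) and Fhl2 (-0.47). Activity of the factor was not tested. For this list no values with the GC and length trend removed are given, and the part of GC content was not tested. Ier3 (0.45), an immediate-early gene, had separated groups, and Junb (1.35), an AP-1 gene, and Ier2 (0.55) had overlapping ones. Junb was at 365 CPM in P1 and at 40.7 to 112 CPM in the other 5 libraries.

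The Arp2/3 complex holds 1 product of each of the 2 actin-related protein genes Actr2 and Actr3 and of 5 further subunit genes, of which Arpc1 comes as Arpc1a or Arpc1b. Of its 8 genes, 0 were higher and 1 (12.5%) was lower at an unadjusted p under 0.05, against 7.90% and 8.71% of all tested genes. The median log2 fold change was -0.02. Arpc5, the smallest core subunit (ENSMUSG00000008475, chromosome 1, 152642293 to 152651348), was at 2296, 1706 and 1957 CPM across N1 to N3 and at 1439, 1531 and 1288 CPM across P1 to P3. All libraries with HTR2C-positive medium lay below the others, a log2 fold change of -0.48 (SE 0.16, unadjusted p = 0.0113, edgeR adjusted p = 0.176), or -0.28 (unadjusted p = 0.0778) with the trend removed. Actr3, the ARP3 subunit, had groups that nearly met, at 914 CPM in N3 and 913 CPM in P1, with means of 947 ± 49.97 and 763 ± 130 CPM (SD, n = 3) and a log2 fold change of -0.31 (SE 0.16), or -0.14 (unadjusted p = 0.366) with the trend removed. Arpc1a, Arpc1b, Arpc2, Arpc3 and Arpc4 had fold changes between -0.15 and 0.17, with overlapping groups.

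Subunit transcripts of the complex were far from equal per length. Actr2, the ARP2 subunit gene (GC 40.3%), had a mean of 1561 FPKM, against 185 for Actr3, its counterpart in the complex, and 9.14 (Arpc1a) to 741 (Arpc5) for the other subunits. Actr2 alone took 0.9669%, 0.7205% and 0.9625% of counts across N1 to N3 and 0.5075%, 0.8197% and 0.8971% across P1 to P3. As with Actb, the lowest values were in N2 and P1. Arpc1b, the form that dominates in blood cells, exceeded Arpc1a 13.6- to 21.8-fold in FPKM, with a log2 difference of the ratio between the media of 0.07, or -0.13 without P1 (exact two-sided permutation test, p = 0.8). Summed over the 8 genes, the complex was at 3201 to 3667 FPKM with HTR2C-negative and 2818 to 3249 FPKM with HTR2C-positive medium. Without Actr2 the sum was 1809, 1817 and 1711 FPKM across N1 to N3 and 1843, 1542 and 1525 FPKM across P1 to P3. P1, lowest in the sum with Actr2, was then the highest.

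Upstream of nucleation, 2 of 5 genes (40.0%) were higher and 1 (20.0%) was lower at an unadjusted p under 0.05. Of all tested genes 7.90% were higher and 8.71% lower. Diaph1 encodes the formin mDia1, which extends unbranched filaments (ENSMUSG00000024456, chromosome 18, 37976654 to 38068529). It was at 15.1, 14.0 and 17.9 CPM across N1 to N3 and at 18.02, 30.6 and 28.5 CPM across P1 to P3. The groups were separated by a narrow gap, since P1 lay just above N3. The log2 fold change was 0.71 (SE 0.22, unadjusted p = 0.00665, edgeR adjusted p = 0.153), 0.93 without P1 and 0.54 (unadjusted p = 0.0404) with the trend removed.

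The WAVE complex, which activates Arp2/3 below Rac, gave values in both directions. Wasf2, the gene of WAVE2, was at 66.8, 92.7 and 63.9 CPM across N1 to N3 and at 106, 90.8 and 109 CPM across P1 to P3, with N2 above P2. Its log2 fold change was 0.45 (SE 0.17, unadjusted p = 0.0208) and 0.15 (unadjusted p = 0.317) with the trend removed. Cyfip1, another subunit gene of that complex, was at 491, 525 and 429 CPM and at 426, 365 and 311 CPM in the same order. Its groups did not overlap, though N3 and P1 nearly met, and the log2 fold change was -0.39 (SE 0.16, unadjusted p = 0.0319) and -0.30 (unadjusted p = 0.0982) with the trend removed. Nckap1l, the blood cell form of the NAP1 subunit, had a log2 fold change of 0.36 (SE 0.17, unadjusted p = 0.0513). Was, the Wiskott-Aldrich syndrome gene that activates Arp2/3 below Cdc42, was at 4.33 to 7.14 CPM across N1 to N3 and 6.68 to 13.5 CPM across P1 to P3 (log2 fold change 0.60, SE 0.31, 0.25 without P3 and 0.36 with the trend removed).

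Genes for monomer binding and filament turnover had positive fold changes in 5 of 5, against 52.1% of all tested genes. At an unadjusted p under 0.05, 1 of them (20.0%) was higher, against 7.90% of all tested genes. Coro1a encodes coronin 1A, an actin-binding protein of white blood cells that is found around phagosomes (ENSMUSG00000030707, chromosome 7, 126298945 to 126306959). It was at 14.2, 23.3 and 21.4 CPM across N1 to N3 and at 52.4, 34.2 and 30.2 CPM across P1 to P3. All 3 libraries with HTR2C-positive medium lay above the others and P1 was the highest. The log2 fold change was 0.98 (SE 0.24, unadjusted p = 0.00126, edgeR adjusted p = 0.0925), 0.73 without P1 and 0.60 (unadjusted p = 0.00955) with the trend removed. DESeq2 gave an adjusted p of 0.00714. Coro1a shares 26 bases with Bola2 on the opposite strand, which had 401 counts in N1 against 161. The related gene Coro1b was at 66.5 to 155 CPM with HTR2C-positive medium and 76.8 to 108 CPM with the other, so the groups overlapped, and its log2 fold change of 0.21 (SE 0.26) was -0.20 without P1 and -0.16 with the trend removed. The ratio of Coro1a to Coro1b in FPKM was 0.213, 0.247 and 0.304 across N1 to N3 and 0.389, 0.592 and 0.404 across P1 to P3, without overlap (log2 difference 0.85, exact two-sided permutation test, p = 0.1).

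The abundant genes of this role had overlapping groups. Cfl1, which encodes cofilin, had means of 499.6 ± 34.9 and 573 ± 62.7 CPM (SD, n = 3), a log2 fold change of 0.20 (SE 0.15). Pfn1, the profilin gene, had one of 0.21 (SE 0.16), which became -0.20 with the trend removed. Tmsb4x, which encodes thymosin beta 4, was at 1914 to 2328 CPM across N1 to N3 and 2194 to 2679 CPM across P1 to P3, a log2 fold change of 0.15 (SE 0.16).

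Capping and severing genes had values in both directions, with 1 higher (20.0%) and 2 lower (40.0%) of 5 at an unadjusted p under 0.05. Of all tested genes 7.90% were higher and 8.71% lower. Capping protein is a pair of 1 alpha and 1 beta chain that closes the growing end of a filament. Capza2, an alpha chain gene (ENSMUSG00000015733, chromosome 6, 17636233 to 17666971), was at 3127, 2316 and 2579 CPM across N1 to N3 and at 1936, 1609 and 1437 CPM across P1 to P3. The groups did not overlap, and the log2 fold change was -0.69 (SE 0.18, unadjusted p = 0.00180, edgeR adjusted p = 0.105). With a GC content of 36.1% it was the member with the lowest, and it was at -0.35 (unadjusted p = 0.0466) with the trend removed. DESeq2 gave an adjusted p of 0.00714.

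The other alpha chain gene, Capza1, was at 258, 245 and 208 CPM across N1 to N3 and at 206, 178 and 135 CPM across P1 to P3. P1 lay just under N3, and the log2 fold change was -0.45 (SE 0.18, unadjusted p = 0.0225), -0.30 without P3 and -0.22 (unadjusted p = 0.204) with the trend removed. Capzb, the beta chain gene, was at 240 ± 2.90 and 237 ± 26.7 CPM (SD, n = 3), a log2 fold change of -0.02 (SE 0.14). Per length, Capza2 was at 259.8 to 468 FPKM, Capzb at 64.2 to 91.3 and Capza1 at 37.9 to 68.6, and the ratio of Capza1 to Capza2 was 0.126 to 0.165 and 0.146 to 0.173 in the 2 groups.

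Gsn and Capg belong to the gelsolin family, which caps filaments in the presence of calcium. Gsn was at 12.4, 12.8 and 7.86 CPM across N1 to N3 and at 33.2, 12.6 and 16.8 CPM across P1 to P3. P1 stood alone at the top and P2 lay among the libraries with HTR2C-negative medium. The log2 fold change of 0.93 (SE 0.32, unadjusted p = 0.0136) was 0.44 without P1 and 0.53 (unadjusted p = 0.0938) with the trend removed. Capg, a macrophage capping protein gene without severing activity, was at 2065 to 2167 CPM and 1751 to 2107 CPM. Its log2 fold change was -0.13 (SE 0.15), 0.0002 with total counts as the scale, and -0.46 (unadjusted p = 0.0177) with the trend removed.

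**Figure D4:**
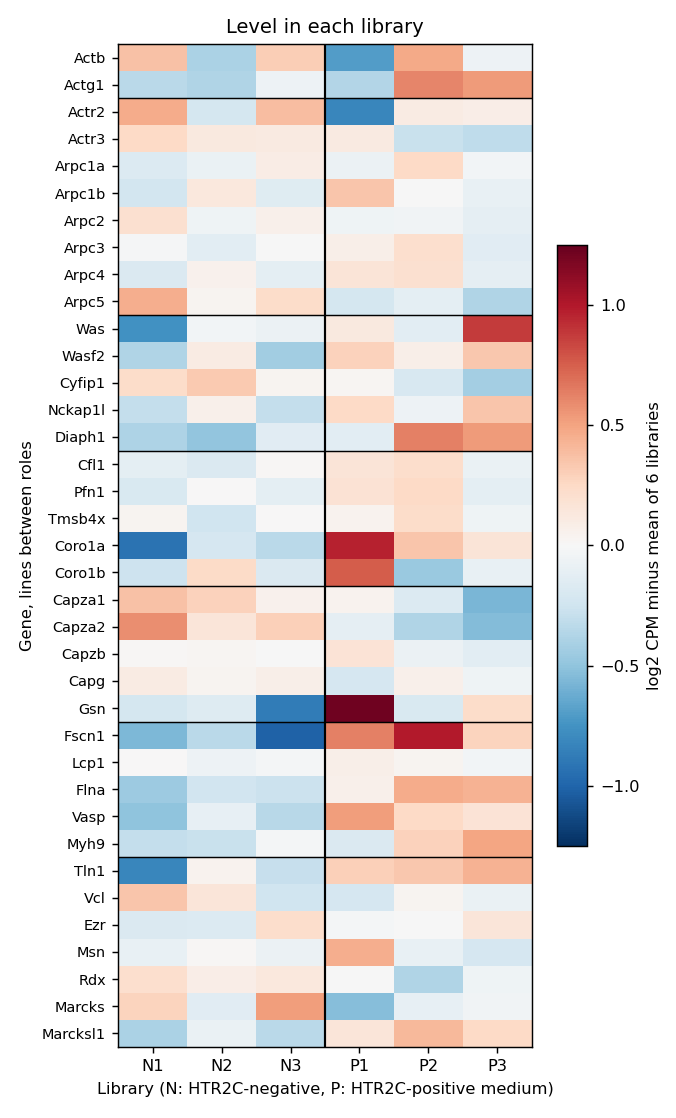
Level of each of the 37 genes (rows, ordered by role with lines between roles) in each library (columns, N1 to N3 HTR2C-negative and P1 to P3 HTR2C-positive medium), as log2 CPM minus the mean of the 6 libraries. Coro1a, Gsn and Coro1b are highest in P1, Actb and Actr2 are lowest there, and Flna and Tln1 are higher in all 3 P libraries.

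Genes for bundling, crosslinking, elongation and contraction had positive fold changes in 5 of 5, against 52.1% of all tested genes. Myh9 among them was not positive with the trend removed. At an unadjusted p under 0.05, 3 (60.0%) were higher, against 7.90% of all tested genes, and these 3 had separated groups. Flna encodes filamin A, which crosslinks filaments into networks and holds them to integrins (ENSMUSG00000031328, chromosome X, 73267067 to 73293426). It was at 104, 120 and 118 CPM across N1 to N3 and at 148, 195 and 192 CPM across P1 to P3. All libraries with HTR2C-positive medium were above the others. The log2 fold change was 0.65 (SE 0.16, unadjusted p = 0.00119), with the smallest adjusted p of the members (0.0908, edgeR). It was 0.36 (unadjusted p = 0.0416) with the trend removed.

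Fscn1 encodes fascin, which bundles filaments in filopodia and is abundant in mature dendritic cells (ENSMUSG00000029581, chromosome 5, 142946098 to 142958940). It was at 2.30, 2.68 and 1.68 CPM across N1 to N3 and at 5.25, 6.75 and 4.11 CPM across P1 to P3, from 25 to 102 counts. The groups did not overlap, and its log2 fold change of 1.27 (SE 0.34, unadjusted p = 0.00251, edgeR adjusted p = 0.113) was the largest of the members. It was 0.80 (unadjusted p = 0.0321) with the trend removed. Fscn1 lies 53588 bases from Actb, on the other strand. The dendritic cell gene Ccr7 had a log2 fold change of 0.31 (unadjusted p = 0.387).

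Vasp, which keeps filament ends growing at the leading edge, was at 36.5, 48.2 and 40.4 CPM across N1 to N3 and at 74.1, 61.2 and 58.1 CPM across P1 to P3. The groups were separate, with a log2 fold change of 0.63 (SE 0.17, unadjusted p = 0.00233, edgeR adjusted p = 0.113) and 0.26 (unadjusted p = 0.0721) with the trend removed. Myh9, the heavy chain of nonmuscle myosin IIA, had one of 0.42 (SE 0.21, unadjusted p = 0.0717) and -0.01 with the trend removed. Lcp1, which encodes the leukocyte bundling protein L-plastin, was at 1082 to 1138 and 1109 to 1196 CPM (log2 fold change 0.05, SE 0.14).

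Among the membrane and adhesion linkers, 2 of 7 (28.6%) were higher and 1 (14.3%) was lower at an unadjusted p under 0.05. Of all tested genes 7.90% were higher and 8.71% lower. Tln1 encodes talin 1, which activates integrins and ties them to actin (ENSMUSG00000028465, chromosome 4, 43531519 to 43562691). It was at 38.1, 69.0 and 54.9 CPM across N1 to N3 and at 82.8, 84.7 and 90.6 CPM across P1 to P3. The groups did not overlap, and the libraries with HTR2C-positive medium lay close together. The log2 fold change was 0.67 (SE 0.19, unadjusted p = 0.00441, edgeR adjusted p = 0.135) and 0.27 (unadjusted p = 0.103) with the trend removed. Tln1 shares 360 bases with Creb3 on the opposite strand, which had 1084 counts in N1 against 431 for Tln1. Whether counting used strand is not given in the sources used here, so reads of such pairs may have been split.

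The 2 genes of the MARCKS family, which hold membrane lipids and actin and release them when phosphorylated, had opposite signs. Marcksl1 (ENSMUSG00000047945, chromosome 4, 129407374 to 129409778) was at 184, 229 and 192 CPM across N1 to N3 and at 268, 322 and 288 CPM across P1 to P3. The groups did not overlap (log2 fold change 0.54, SE 0.15, unadjusted p = 0.00378, edgeR adjusted p = 0.129), and the fold change was 0.18 (unadjusted p = 0.211) with the trend removed. Marcks was at 1395, 1042 and 1654 CPM across N1 to N3 and at 796, 1072 and 1117 CPM across P1 to P3. P2 and P3 lay above N2, so its groups overlapped (log2 fold change -0.45, SE 0.20, unadjusted p = 0.0380), with -0.28 without N3 and -0.30 (unadjusted p = 0.155) with the trend removed. The GC content was 58.2% for Marcksl1 and 45.1% for Marcks. The ratio of Marcks to Marcksl1 in FPKM was 2.998, 1.80 and 3.42 across N1 to N3 and 1.18, 1.32 and 1.54 across P1 to P3. It was lower in all 3 libraries with HTR2C-positive medium, a log2 difference of -0.98 (exact two-sided permutation test, p = 0.1, the smallest possible).

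The ezrin, radixin and moesin genes, which link actin to the plasma membrane, were led by Msn in each library. The moesin gene exceeded Ezr 3.58- to 6.41-fold and Rdx 3.41- to 5.74-fold in FPKM. Msn was at 561 CPM in P1 and at 356 to 415 CPM in the other 5 libraries. Ezr had a log2 fold change of 0.07 (SE 0.16), and Rdx, whose groups did not overlap, one of -0.28 (SE 0.15, unadjusted p = 0.0921), which was -0.17 without P2 and -0.12 with the trend removed. Vcl was at 6.31 to 9.54 and 6.44 to 7.67 CPM and shares 2235 bases with Ap3m1, which had more counts than Vcl in N1.

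**Figure D5:**
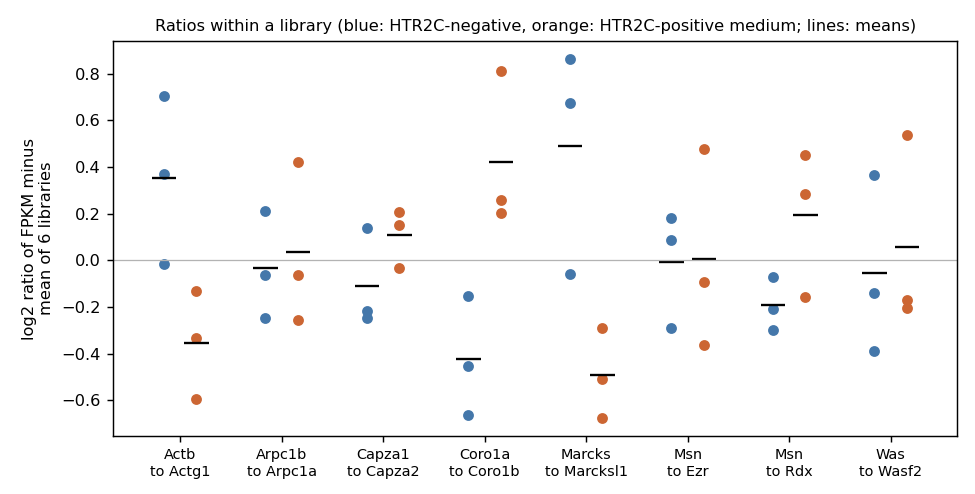
Log2 ratio of FPKM of related genes within each library minus its mean over the 6 libraries (y axis), for 8 pairs (x axis), with 1 point per library and a line at each group's mean. The groups do not overlap for Actb to Actg1, Coro1a to Coro1b and Marcks to Marcksl1, and they overlap for the other 5 pairs.

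Genes around these members gave values in both directions, to be read against the 7.90% and 8.71% of all tested genes that were higher and lower. For the wider lists, here and in the next paragraph, no values with the GC and length trend removed are given. The part of GC content in them was not tested. Of 81 tested genes on a list of other actin regulators, 9 were higher and 9 lower (11.1% each, unadjusted p under 0.05), with a median log2 fold change of 0.08. Among the higher ones were Actn4, the actinin 4 gene (0.64, SE 0.19), and Myo1g, a myosin gene of blood cells (0.78, SE 0.24). Sptbn1, a spectrin gene, was at 64.7, 48.3 and 67.6 CPM across N1 to N3 and at 35.2, 35.9 and 35.0 CPM across P1 to P3 (-0.77, SE 0.17, edgeR adjusted p = 0.0805). Abi2 (-0.67, SE 0.18) and Nckap1 (-1.21, SE 0.34, at 1.63 to 5.98 CPM), which encode WAVE complex subunits, were also lower without overlap. Of the other tested subunit genes on the list, Brk1 (0.41, SE 0.16) was higher and Abi1 (-0.24, SE 0.15) lower without overlap. Cyfip2 (0.28, SE 0.30) had overlapping groups.

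Of 15 adhesion genes beyond the members, 4 were higher and 1 was lower, with a median of 0.37. Ptk2b, which encodes the focal adhesion kinase relative PYK2 (0.73, SE 0.15, edgeR adjusted p = 0.0805), Pxn, the paxillin gene (0.78, SE 0.27), and Fermt3, the kindlin 3 gene (0.52, SE 0.20), were the higher ones with the smallest p, and Lims1 (-0.41, SE 0.16) was the lower one. Of 9 tubulin genes, 1 was higher (Tubb4b, 0.47, SE 0.17) and 0 lower, with a median of 0.02. Of 10 common reference genes, 1 was higher (Gapdh, 0.77, SE 0.34, edgeR adjusted p = 0.286) and 1 lower (Tbp, -0.57, SE 0.26, edgeR adjusted p = 0.294), both with overlapping groups, and the median was -0.06.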

How the data were processed

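RNA-seq of 6 libraries was analysed, 3 per medium, grouped by sample title. Per the labels, RNA isolation used Trizol and library preparation a VAHTS Universal V6 kit. Tools named without versions in the submitters' processing notes are edgeR, fastp, HISAT2 and StringTie, with build GRCm39. The deposited values are whole-number read counts per gene, not normalized, and FPKM, which per the file headers and values are counts divided by length and library total (largest relative difference 3.80e-07). Genes passing filterByExpr (10177) were scaled with TMM factors (0.881 to 1.13) and tested by robust quasi-likelihood F tests in edgeR 4.0.16 (R 4.3.3), Benjamini-Hochberg adjusted over all of them at 0.05. Members and gene lists were chosen with earlier results of these data known. Values in each library are given for Actb, Actg1, members with an unadjusted p under 0.05 and the smallest p in each role, and from each wider list up to 3 genes per direction; 1 gene and 1 list are not reported here. GC content came from the longest GENCODE M21 transcript (10162 tested genes, all 37 members) and its trend was removed with splines (4 degrees of freedom each for GC and log length) as offsets. DESeq2 1.42.0, limma-voom (limma 3.58.1), other scalings and filters, a replicate block and leaving out libraries were alternatives. On simulated counts of 10177 genes for this comparison, edgeR found 8.67% of genes changed 1.5-fold, 50% of 2-fold, 74% of 3-fold and 86.7% of 4-fold. A count of 0 allows up to 3 counts, 0.187 to 0.234 CPM by library.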

Additional observations from a re-analysis of the deposited data

How the results depend on the processing

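The 15 members with an unadjusted p under 0.05 kept their sign under all 17 alternatives run. They were picked from the same counts that the alternatives reuse, so a kept sign is no independent support. The numbers of members called did not hold. Main values were 10 higher, 5 lower, 0 past the adjusted threshold and a median of 0.15. Total counts gave 2 lower (5.41%, against 3.85% of all genes) and a median of 0.29. Total counts without Actb gave 2 lower (5.41%, against 4.21%) and 0.28. Members past the adjusted threshold were 9 with no count filter (422 of all 14861 genes, 2.84%) and 6 with DESeq2 (394 of all 10177 genes, 3.87%). Without N2 and P1 together they were 16 (1107 of all genes, 10.9%), with 8 members lower (21.6%, against 12.7% of all genes) and a median of 0.0936. N2 and P1 are the libraries most alike across the groups, so leaving out both favours more calls and is no independent check. Removing the GC and length trend left 4 higher and 2 lower (median 0.0427, with 4.34% and 5.46% of all genes). With the replicate number as a block (replicate block) 3 were lower (8.11%, against 6.10% of all genes). With block and trend removal 2 were higher and 0 lower (median 0.0431, with 2.80% and 3.52% of all genes). Same-numbered libraries correlated at -0.152, -0.231 and 0.0532 in their deviations from group means, so the numbers were not taken as pairs. Leaving out each library in turn gave 1 (without N1) to 5 lower. That share was below the share of all genes without N1 (2.70% against 4.32%) and without P3 (5.41% against 6.78%). It was above it without N2 (13.5% against 9.74%), N3 (10.8% against 5.38%), P1 (13.5% against 9.05%) and P2 (10.8% against 7.53%). From 0 to 5 members passed the adjusted threshold (3 without N2, 5 without P1, against 1.97% and 1.80% of all genes). The median ran from 0.11 (without P2) to 0.25 (without P3). The Actb log2 fold change ran from -0.48 to 0.11 (without P1), and the Actb share difference from -1.76 to 1.48 percentage points. Log2 ratio differences ran from -0.13 to 0.21 for Arpc1b to Arpc1a, from -0.22 to 0.20 for Msn to Ezr and from -0.13 to 0.32 for Was to Wasf2. Without N2 and P1 together the Actb share differed by 0.341 percentage points, Arpc1b to Arpc1a by -0.0032 and Msn to Ezr by -0.13. The cause of these changes was not tested. With 3 libraries per group the exact tests cannot go below 0.1.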
